A study of Mus musculus with 10 samples.

Results

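Endothelial receptors and surface markers were examined as 10 genes, Kdr, Flt1, Tek, Tie1, Pecam1, Emcn, Plvap, Eng, Cd34 and Mcam, out of 19938 genes that the array measured by a transcript cluster naming no other gene. The genes were listed by name, with no threshold on measured values but with earlier results of these data known, and each was represented by its transcript cluster with the highest mean over all 10 samples. Each had 1 such cluster, a set of probes along the exons that gives 1 signal, and none shared a further cluster with another gene. CAR KO embryos (CAR −/−, line B6.Cg-Cxadr tm1/Fgr) were compared with WT embryos (CAR +/+) at E10.5, the embryos coming from crosses of CAR +/− mice and receiving no treatment. The knockout is global, so every cell type of the heart carried it, endothelium included. Each genotype had 5 samples of 3 pooled whole hearts, and by the paper's count of hearts these were pools of different hearts. The labels do not say whether the pools came from separate litters, so p-values measure only the spread between these pools. RNA was hybridised to Affymetrix Mouse Gene 1.0 ST arrays, and all values are log2 signals as deposited. A level on this scale depends on the probes, so that levels are compared between samples of 1 gene and never between genes.

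Endothelial cells line the vessels and, as the endocardium, the inside of the heart tube, where they lie against the myocardium and give rise to the cushions of the valves. Their growth is driven by VEGF through the receptor tyrosine kinase KDR, while the related FLT1 binds VEGF but signals weakly. Their quiescence and the stability of the vessel wall are driven by angiopoietins through TEK and its partner TIE1. Endoglin is a co-receptor for ligands of the BMP and TGF-beta family. The other surface proteins are adhesion molecules, sialomucins and a component of caveolar diaphragms that are widely used to stain and sort endothelium.

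The CAR transcript Cxadr was at 6.69, 6.56, 6.37, 6.47 and 6.23 in CAR KO samples 1 to 5, against 8.28, 8.25, 8.46, 8.66 and 8.24 in WT samples 1 to 5. The genotypes did not overlap (log2 fold change −1.91, adjusted p = 1.40e-05 from limma; two-sided p = 0.00794 in an exact permutation test, which cannot go lower with 5 samples against 5). All 10 endothelial genes lay 3.13 to 5.75 above the background level of 6.51 on the log2 scale, which is the 95th percentile of odorant and vomeronasal receptor clusters, so that the endothelial markers were well detected in the hearts of both genotypes. Medians of the arrays lay between 7.65 and 7.73, and the number of arrays limits the precision.

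No endothelial transcript passed the test between CAR KO and WT hearts. With limma's moderated test, adjusted by Benjamini-Hochberg over 28944 transcript clusters, 0 of the 10 genes were called, and none reached 0.05 before adjustment, where 0.00345% of all clusters were called and 2.4% lay under 0.05 before adjustment. None of the 10 was called, or lay under 0.05 unadjusted, in the methods' t-test. Of the 10 differences, 9 were below 0, those of all genes but Kdr, where 50.1% of 14661 genes above background were. The median log2 fold change of the 10 genes was −0.13, and that of all transcript clusters was 0.01. This median rested on 1 sample: without CAR KO sample 5 it was −0.03, with 8 of 10 differences below 0, and with array weights −0.05. Genotypes overlapped for all 10 genes, and they did not overlap for 0.359% of transcript clusters. In samples of whole hearts, a lower signal would not tell apart fewer endothelial cells, less RNA per endothelial cell and a larger share of other cells.

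**Figure D1:**
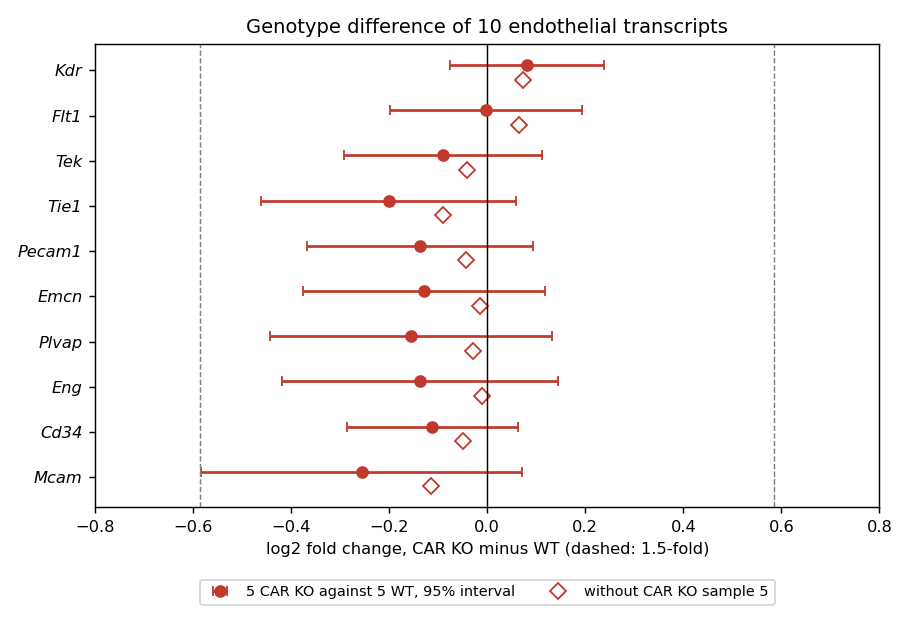
Genotype difference of the 10 endothelial transcripts, as log2 fold change of CAR KO over WT, with 95% confidence intervals from limma (filled circles, 5 samples against 5) and without CAR KO sample 5 (open diamonds, 4 against 5); dashed lines mark a 1.5-fold change. All intervals include 0, and without CAR KO sample 5 the values of 9 genes move up, and that of Kdr is 0.07 in place of 0.08.

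Kdr encodes VEGFR2, the main signalling receptor for VEGF-A. It was at 11.10, 10.98, 11.03, 11.06 and 11.08 in CAR KO samples 1 to 5, against 10.95, 11.08, 11.12, 10.94 and 10.74 in WT samples 1 to 5. The CAR KO samples lay close together, and WT sample 5 was below all others. The log2 fold change was 0.08 (95% confidence interval −0.08 to 0.24), or 5.81% (−5.13% to 18.0%) on the linear scale. Flt1 encodes VEGFR1, which binds VEGF-A with high affinity but signals weakly, and whose soluble form holds the ligand back. It was at 9.69, 9.82, 9.53, 9.77 and 9.37 in CAR KO samples, against 9.62, 9.68, 9.77, 9.63 and 9.49 in WT samples. CAR KO samples included both the highest value, in sample 2, and the lowest, in sample 5. The means were 9.64 ± 0.19 in CAR KO and 9.64 ± 0.10 in WT hearts (SD, n = 5 each), and the interval of the log2 fold change ran from −0.20 to 0.19. Kdr lies on chromosome 5 from 75932827 to 75979072 and Flt1 on chromosome 5 from 147561604 to 147726438 (GRCm38.p6).

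Tek encodes TIE2, the receptor of the angiopoietins. Its signal was 11.59, 11.55, 11.43, 11.61 and 11.30 in CAR KO samples 1 to 5, against 11.61, 11.70, 11.66, 11.69 and 11.28 in WT samples 1 to 5. Sample 5 was the lowest of its genotype in both, and WT sample 5 was the lowest of all. The log2 fold change was −0.09 (95% confidence interval −0.29 to 0.11). Tie1 encodes a related receptor that binds no angiopoietin on its own and modulates TIE2. It was at 10.93, 10.73, 10.66, 10.96 and 10.26 in CAR KO samples, against 11.01, 10.99, 10.87, 10.93 and 10.75 in WT samples. CAR KO samples 2, 3 and 5 lay below every WT sample, and CAR KO samples 1 and 4 lay among them. The means were 10.71 ± 0.28 in CAR KO and 10.91 ± 0.10 in WT hearts (SD, n = 5 each), and limma gave a log2 fold change of −0.20 (−0.46 to 0.06 at 95% confidence, adjusted p = 1.0), or −13.0% (−27.4% to 4.17%) on the linear scale. Without CAR KO sample 5 the difference was −0.09. Tek lies on chromosome 4 from 94739086 to 94874976 and Tie1 on chromosome 4 from 118471191 to 118489849 (GRCm38.p6).

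Within a sample, the difference between paired receptors does not depend on the scale of the array. Since probes differ between genes, only its change between genotypes is read, and not its size. Flt1 minus Kdr was −1.41, −1.16, −1.50, −1.29 and −1.71 in CAR KO samples 1 to 5, against −1.33, −1.40, −1.35, −1.31 and −1.25 in WT samples 1 to 5. The CAR KO samples were spread on both sides of the WT samples. Tie1 minus Tek was −0.66, −0.81, −0.77, −0.66 and −1.03 in CAR KO samples, against −0.60, −0.71, −0.79, −0.76 and −0.53 in WT samples. Neither relative level differed between genotypes beyond the spread of the samples. The change was −0.08 for Flt1 relative to Kdr and −0.11 for Tie1 relative to Tek (exact permutation tests, two-sided, p = 0.437 and p = 0.254, adjusted over the 2 pairs p = 0.437 for both). Without CAR KO sample 5 these changes were −0.0097 and −0.05.

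Pecam1 encodes CD31, an adhesion molecule of the immunoglobulin superfamily at endothelial contacts that platelets and leukocytes also carry. It was at 11.00, 10.93, 10.77, 10.98 and 10.45 in CAR KO samples 1 to 5, against 10.91, 11.03, 11.06, 11.03 and 10.77 in WT samples. Sample 5 was again the lowest of each genotype. Pecam1 differed by −0.14 on the log2 scale (−0.37 to 0.09). Mcam encodes CD146, another immunoglobulin superfamily molecule, found on endothelium and on mural cells. Its signal was 11.40, 11.61, 11.14, 11.47 and 10.70 in CAR KO samples, against 11.49, 11.61, 11.56, 11.66 and 11.30 in WT samples. CAR KO samples 3 and 5 lay below every WT sample. The means were 11.27 ± 0.36 in CAR KO and 11.52 ± 0.14 in WT hearts (SD, n = 5 each), and the log2 fold change of −0.26 was the lowest of the 10 genes (95% confidence interval −0.58 to 0.07, adjusted p = 1.0 from limma). On the linear scale it was −16.3% (−33.3% to 5.03%), and without CAR KO sample 5 the log2 fold change was −0.11. Pecam1 lies on chromosome 11 from 106654213 to 106715281 and Mcam on chromosome 9 from 44134658 to 44142727 (GRCm38.p6).

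Emcn and Cd34 encode sialomucins. Endomucin marks veins, capillaries and endocardium, and was at 11.79, 11.81, 11.61, 11.86 and 11.20 in CAR KO samples 1 to 5, against 11.68, 11.83, 11.87, 11.80 and 11.73 in WT samples 1 to 5. CAR KO samples 3 and 5 lay below all WT samples, and the others among them. Emcn differed by −0.13 on the log2 scale (−0.38 to 0.12). CD34 is carried by endothelium and by blood progenitors. Cd34 was at 11.23, 11.09, 11.00, 11.26 and 10.84 in CAR KO samples, against 11.13, 11.24, 11.22, 11.17 and 11.22 in WT samples. The WT samples varied the least of any member, with a SD of 0.04. CAR KO samples 2, 3 and 5 lay below every WT sample, sample 4 lay just above them all, and sample 1 lay among them. Cd34 differed by −0.11 on the log2 scale (−0.29 to 0.06). Emcn lies on chromosome 3 from 137341062 to 137431069 and Cd34 on chromosome 1 from 194938821 to 194961292 (GRCm38.p6).

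Plvap encodes the protein that forms the diaphragms of fenestrae and caveolae. It was at 12.14, 11.93, 11.87, 12.17 and 11.40 in CAR KO samples 1 to 5, against 12.09, 12.19, 12.11, 12.05 and 11.85 in WT samples 1 to 5. Only CAR KO sample 5 left the range of WT samples. The log2 fold change was −0.15 (95% confidence interval −0.44 to 0.13), and without that sample −0.03. Eng, the endoglin gene, was at 12.44, 12.31, 12.10, 12.42 and 11.70 in CAR KO samples, against 12.45, 12.40, 12.29, 12.35 and 12.18 in WT samples. CAR KO samples 3 and 5 lay below the WT samples. Eng differed by −0.14 on the log2 scale (−0.42 to 0.14), and without CAR KO sample 5 it was −0.01. Plvap lies on chromosome 8 from 71497753 to 71511806 and Eng on chromosome 2 from 32646595 to 32682669 (GRCm38.p6).

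**Figure D2:**
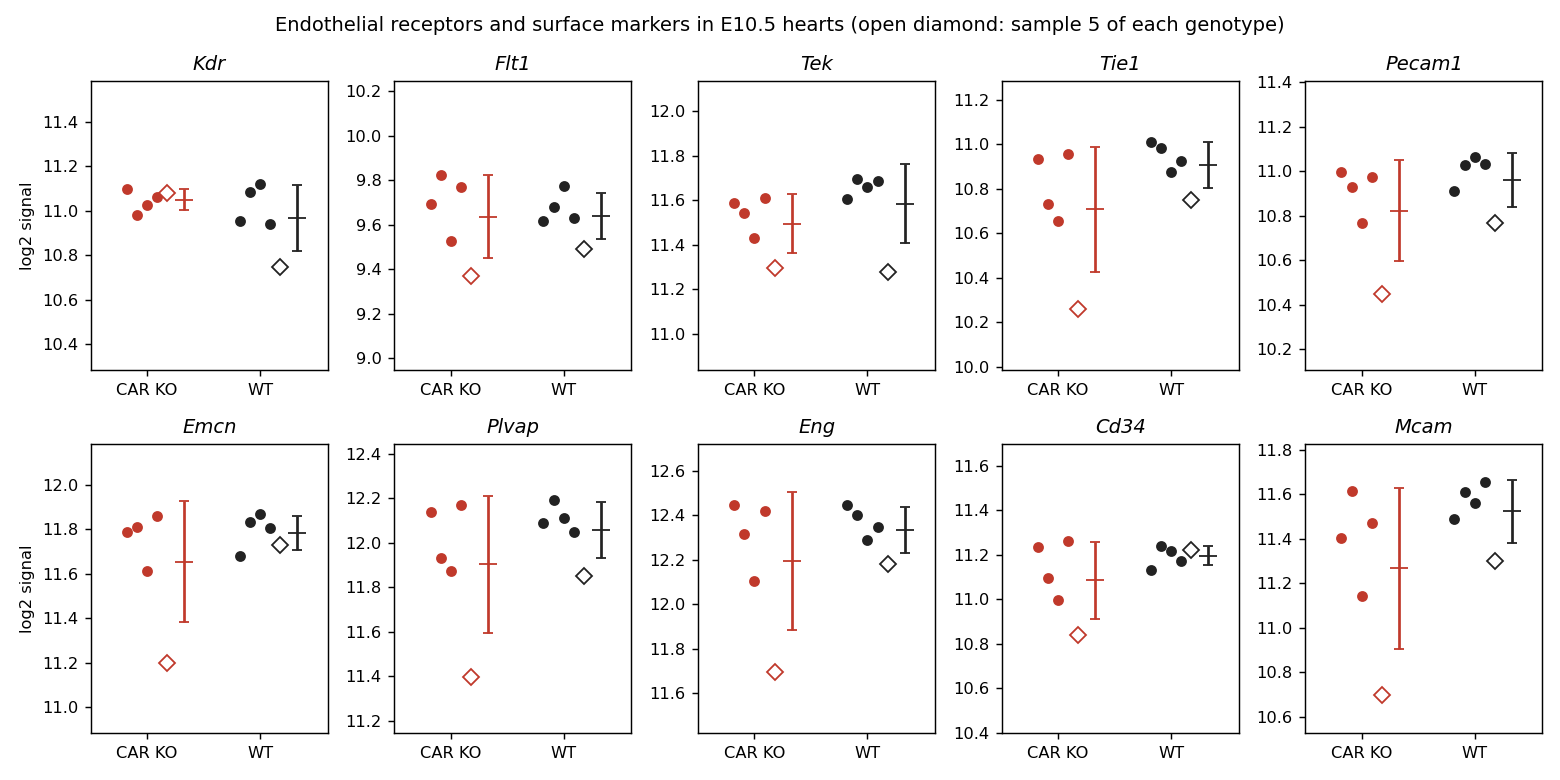
Each panel plots 1 endothelial transcript, with the log2 signal of every CAR KO (red) and WT (black) heart sample at E10.5; filled circles are samples 1 to 4, open diamonds are sample 5, and bars give the mean and SD. All panels span the same range of log2 signal; CAR KO sample 5 is the lowest CAR KO sample for 9 of the 10 genes, and for Kdr it lies among the others.

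A p that misses the threshold does not say how far the levels differ, so the unadjusted 95% confidence intervals were also read against limits of 1.5-fold higher and 1.5-fold lower. They lay within these limits for 10 of 10 members, with Mcam at the edge, for 97.3% of all clusters and for 97.1% of genes above background. When any 1 sample other than CAR KO sample 5 was left out, 9 of 10 lay within the wider limits. Within a 1.2-fold change lay the intervals of 2 of 10 members, Kdr and Flt1, and those of 63.9% of genes above background. Without CAR KO sample 5 the numbers were 10 and 8 of 10. Over the 10 genes, exact permutation tests gave two-sided p-values from 0.151 to 0.992.

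Most members moved together across samples. In CAR KO sample 5 the 10 genes lay on average 0.47 below the WT mean on the log2 scale, and 8 of them had their lowest value of all 10 samples there, as did 28.3% of genes above background. The 2 others were Kdr and Tek. It was the lowest CAR KO sample for 9 of 10 members, against 40.9% of genes above background. On the linear scale, Mcam was at 0.612 times the level given by the mean log2 value of the other 4 CAR KO samples. Plvap was at 0.646, Eng at 0.648, Emcn at 0.674 and Tie1 at 0.679 times. Pecam1 was at 0.722, Cd34 at 0.808, Flt1 at 0.795 and Tek at 0.841 times, whereas Kdr was at 1.03 times. Sample 3 was the other low CAR KO sample, with a mean of 0.18 below WT and 5 members below every WT sample. CAR KO samples 1 and 4 lay 0.04 and 0.06 above the WT mean, and sample 2 lay 0.02 below it. Among WT samples, sample 5 lay 0.16 below the WT mean and was the lowest of its genotype for 8 of 10 members, as it was for 28.6% of genes above background. The SD was larger in CAR KO than in WT hearts for 8 of 10 members, and for 65.1% of genes above background.

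**Figure D3:**
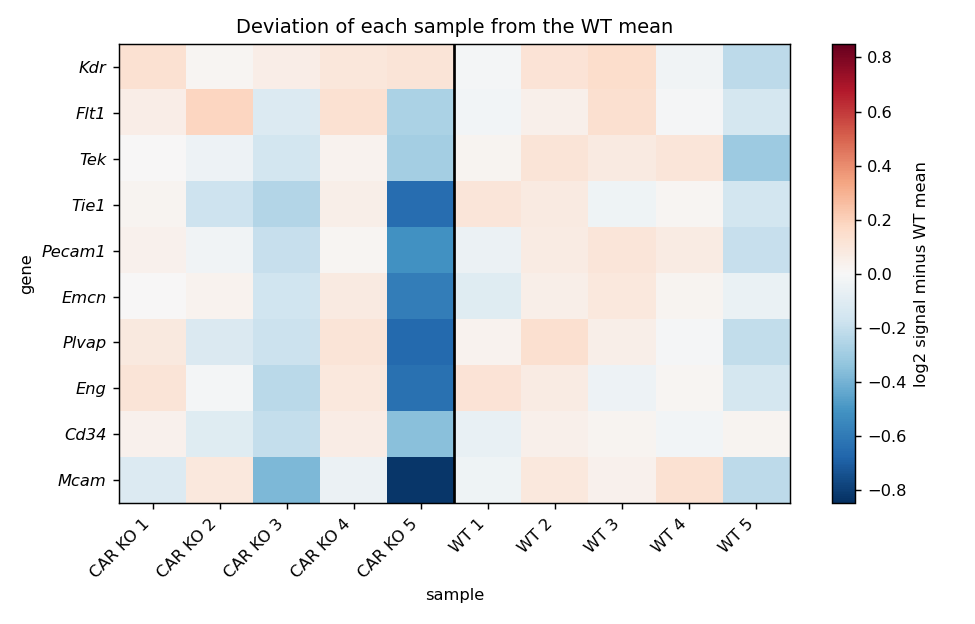
Log2 signal of each endothelial transcript (rows) in each sample (columns, CAR KO left of the line and WT right of it) minus the WT mean of that gene; blue is below and red above the WT mean. CAR KO sample 5 is blue for all genes but Kdr, with Mcam the lowest at −0.82, and CAR KO sample 3 and WT sample 5 are paler blue for most.

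For the members with a promoter window wholly upstream of the annotated gene, the 250 bases before the RefSeq start (GRCm38.p6) are shown, since these genes were among those that were low together in CAR KO sample 5. Capitals mark AGGAAG and CGGAAG on either strand (also read as CTTCCT and CTTCCG). These are 2 of the sequences bound by ETS factors, which are widely used in endothelial genes, and other ETS sites were not searched.
Tie1, chr4:118489850-118490099, - strand: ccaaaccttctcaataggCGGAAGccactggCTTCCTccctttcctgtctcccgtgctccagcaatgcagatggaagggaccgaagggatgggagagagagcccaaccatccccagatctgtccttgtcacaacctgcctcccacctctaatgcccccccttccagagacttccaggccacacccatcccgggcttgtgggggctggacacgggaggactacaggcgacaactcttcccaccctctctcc
Eng, chr2:32646345-32646594, + strand: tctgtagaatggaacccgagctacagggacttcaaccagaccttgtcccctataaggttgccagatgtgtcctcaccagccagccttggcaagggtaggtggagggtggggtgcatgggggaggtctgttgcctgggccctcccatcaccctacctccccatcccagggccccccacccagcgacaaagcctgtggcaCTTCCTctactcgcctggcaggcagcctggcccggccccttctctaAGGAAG
Cd34, chr1:194938571-194938820, + strand: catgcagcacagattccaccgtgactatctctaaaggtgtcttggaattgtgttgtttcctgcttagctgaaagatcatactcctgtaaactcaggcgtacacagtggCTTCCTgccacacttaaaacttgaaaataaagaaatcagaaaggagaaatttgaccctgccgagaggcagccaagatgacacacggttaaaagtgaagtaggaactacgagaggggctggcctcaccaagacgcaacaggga
Mcam, chr9:44134408-44134657, + strand: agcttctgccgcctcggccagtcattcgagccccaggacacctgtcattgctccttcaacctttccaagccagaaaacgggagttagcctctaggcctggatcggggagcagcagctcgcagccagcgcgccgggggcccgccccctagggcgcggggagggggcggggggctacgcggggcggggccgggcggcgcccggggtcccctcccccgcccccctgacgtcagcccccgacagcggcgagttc
Matches numbered 2 in the windows of Tie1 and Eng, 1 in that of Cd34 and 0 in that of Mcam, and 39.2% of 32851 windows of the same length held at least 1. The windows of Kdr and Tek held 0, and those of Flt1 and Emcn 2, but these reach into the annotated gene and are not shown. Pecam1 and Plvap had no window in the table. A match is a description of the letters only. Whether matches bear on the levels in CAR KO sample 5 was not tested.

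The ligands and partners of the receptors did not pass the test either. Of 8 VEGF ligands and other VEGF receptors, 8 lay above background, 0 were called in either direction, and the median log2 fold change was −0.0055. Vegfa, the ligand of KDR and FLT1, differed by 0.05 (95% confidence interval −0.22 to 0.32), Vegfb by −0.03 and Pgf, both ligands of FLT1, by 0.13. The lymphatic ligands Vegfc and Vegfd differed by −0.10 and −0.02, and their receptor Flt4 by −0.11. Nrp1 and Nrp2, co-receptors for VEGF and semaphorins, differed by 0.01 and 0.09. Of 6 angiopoietins and TIE partners 0 were called, with a median of 0.04. Angpt1, the agonist of TIE2 that myocardium supplies in the embryonic heart, differed by 0.13. Angpt2, its context-dependent antagonist, had the smallest unadjusted p of this list, and its log2 fold change of 0.21 (95% confidence interval −0.03 to 0.46) came with 1 high sample. CAR KO sample 5 was at 7.86 and the other CAR KO samples at 7.20 to 7.36, against 7.12 to 7.32 in WT samples. CAR KO samples 1, 2 and 5 lay above every WT sample, and samples 3 and 4 lay among them. Without CAR KO sample 5 Angpt2 averaged 7.28 in CAR KO hearts, against 7.19 in WT hearts. Angpt4 differed by 0.05, Ptprb, the phosphatase that holds TIE2 in check, by −0.14, the adaptor Dok2 by 0.04 and Svep1 by −0.04.

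Of 11 endoglin ligands and receptor partners 0 were called, and the median was −0.03. Tgfbr2, the type II receptor for TGF-beta, was at 9.84, 9.68, 9.48, 9.72 and 9.66 in CAR KO samples 1 to 5, against 9.88, 9.98, 9.75, 9.99 and 9.87 in WT samples 1 to 5. CAR KO samples 2 to 5 lay below every WT sample, and sample 1 lay among them. Limma gave a log2 fold change of −0.22 (−0.38 to −0.06 at 95% confidence, unadjusted p = 0.012), with an adjusted p of 1.0. Tgfbr2 was the 1 gene of these 11 under 0.05 before adjustment, where 2.4% of all clusters were. The VEGF and angiopoietin lists held 0 such genes. The ligand Gdf2 differed by 0.0094, but on average it lay only 0.13 above the background level, where a difference says little. The ligands Bmp10, Tgfb1 and Tgfb3 differed by −0.13, 0.11 and −0.03. The type I receptors Acvrl1, the partner of endoglin in endothelium, and Tgfbr1 differed by −0.0089 and −0.04. Tgfbr3, a co-receptor related to endoglin, differed by −0.04, and the type II receptors Bmpr2, Acvr2a and Acvr2b by 0.01, −0.10 and 0.10.

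**Figure D4:**
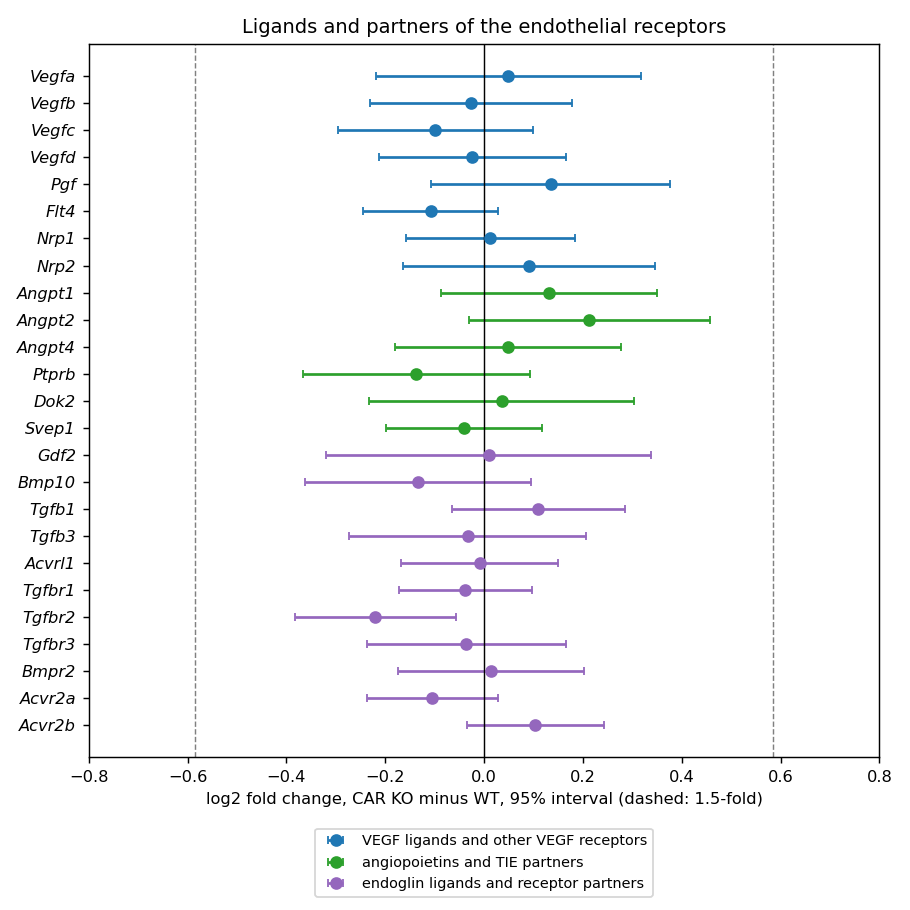
Genotype difference, as log2 fold change of CAR KO over WT (5 samples each), with 95% confidence intervals for the ligands and partners of the VEGF receptors (blue), the TIE receptors (green) and endoglin (purple); dashed lines mark a 1.5-fold change. The intervals are not adjusted for the number of genes. All 25 intervals lie within the dashed lines, and that of Tgfbr2 does not include 0.

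Among 24 other endothelial surface genes 0 were called, 9 differences were above 0 and 15 below, and the median was −0.03. Cdh5, the gene of VE-cadherin, the adhesion molecule of endothelial junctions, differed by −0.11 (95% confidence interval −0.27 to 0.04), Cldn5, a claudin of endothelial tight junctions, by 0.15, and the adhesion molecules Esam and Icam2 by −0.08 and 0.02. The endocardial markers Nfatc1, Npr3 and Tmem100 differed by 0.02, −0.03 and −0.19, with 0 of 3 called.

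CAR KO sample 5 stood apart in genes of other cell types too. Relative to the mean of the other CAR KO samples it had a median of −0.51 over the 10 members, −0.29 over the 24 other endothelial surface genes, −0.59 over the 3 endocardial genes and −0.05 over all genes above background. For 12 cardiomyocyte genes, all of them above background, this median was −0.29, and CAR KO sample 5 was the lowest CAR KO sample for 12 of 12. The mean of that list lay between 12.80 and 13.16 in CAR KO samples, lowest in sample 5, and between 12.89 and 13.14 in WT samples. The liver and yolk sac list, with 15 of 17 genes above background, went the other way with a median of 2.29, and its mean ranged from 6.80 to 9.45 in CAR KO samples, highest in sample 5, and from 7.19 to 8.66 in WT samples. Alb, the gene of serum albumin, was at 12.90 in CAR KO sample 5 and at 11.83 in WT sample 5, and Afp, the gene of alpha-fetoprotein, was at 12.51 and 11.40 there. Alb was also at 12.08 in WT sample 2, where the 10 endothelial genes lay 0.08 above the WT mean, and at 6.66 in CAR KO sample 3, where they lay below it. Blood progenitor and platelet genes, 10 of 11 above background, had a median of 0.98 in CAR KO sample 5 relative to the other CAR KO samples, and a list mean of 8.27 to 9.37 in CAR KO and 8.29 to 8.82 in WT samples. The part of these other cells in the low endothelial values was not tested. Without the 3 samples richest in Alb (CAR KO sample 5 and WT samples 2 and 5), an alternative chosen after the data were seen, 0 members were called and the median log2 fold change was −0.05.

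**Figure D5:**
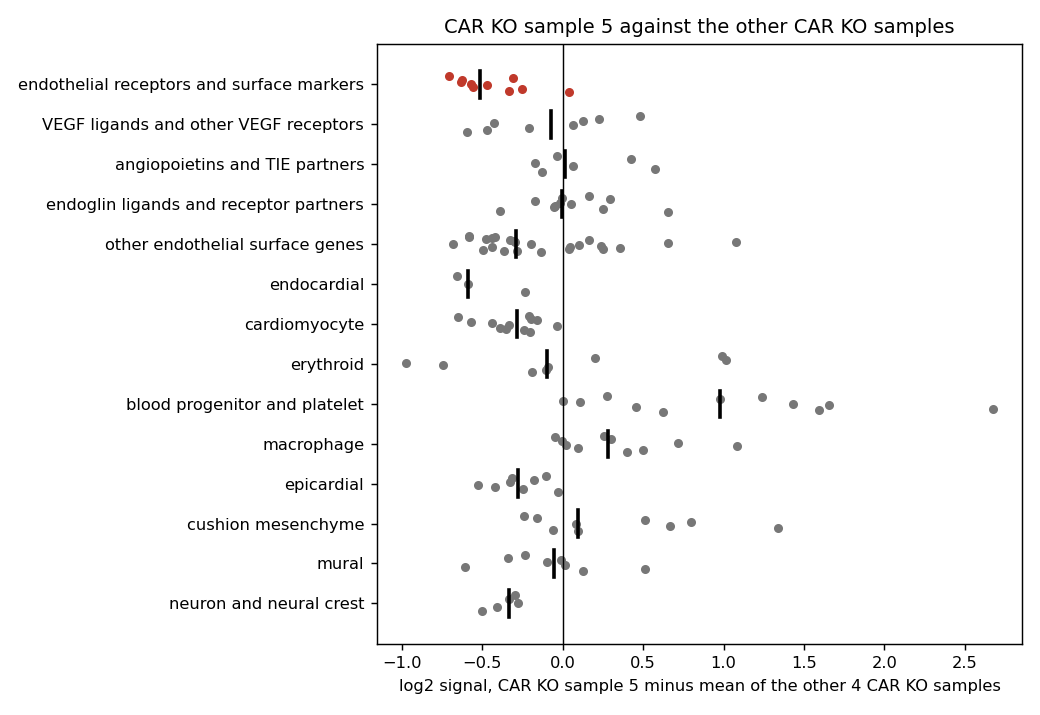
Log2 signal of CAR KO sample 5 minus the mean of the other 4 CAR KO samples, 1 point per gene; the 10 endothelial members are red, other lists grey, and black bars give medians. The liver and yolk sac list (median 2.29) is not drawn; the members lie at −0.51 in the median and the blood progenitor list at 0.98.

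Marker lists of the remaining cell types held no called gene. Macrophage markers, 8 of 10 above background and with Adgre1 and Aif1 below it, had a median log2 fold change of −0.19, with list means of 7.08 to 7.51 in CAR KO and 7.28 to 7.84 in WT samples. Mural markers, 8 of 8 above background, had a median of −0.11 and list means of 9.98 to 10.23 in CAR KO and 10.04 to 10.36 in WT samples. Epicardial markers, 8 of 8 above background, were the list in which most genes lay under 0.05 before adjustment in limma. These were 5 of 8, each lower in CAR KO hearts, where 2.4% of all clusters lay under 0.05, and 0 were called. All 8 epicardial differences were below 0. Their median was −0.26, and list means were 9.35 to 9.84 in CAR KO samples, lowest in sample 5, and 9.72 to 9.96 in WT samples. The medians were −0.03 for cushion mesenchyme, −0.04 for erythroid and −0.06 for neuron and neural crest genes. Under 0.05 before adjustment in limma also lay 2 of 10 macrophage, 2 of 9 cushion mesenchyme, 1 of 8 mural and 1 of 12 cardiomyocyte genes. Each of these was lower in CAR KO hearts, and 1 of the macrophage genes was Adgre1, below background. The erythroid and the neuron and neural crest lists held 0.

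The genes whose deviations from their genotype means were most like the mean deviation of the 10 members, among 14651 other genes above background, were Naglu, Wfs1, Ecm1, Kcnq1, Ddost, Igsf23, Ccser2, Cav3, Fam78a and Afap1l1, with Pearson's r from 0.982 to 0.991 over 10 samples. The points are the same 10 arrays for every gene, and CAR KO sample 5 lies farthest out among them. For Naglu, a lysosomal enzyme, r was 0.97 without it, and for Afap1l1 it was 0.943. An r over 0.9 was reached by 478 genes, and the median r over all 14651 genes was 0.152. Over all 10 samples Kdr followed the other members least, with a median r of 0.195 with them, and Pecam1 most, with 0.906. Without CAR KO sample 5 Kdr did not stand apart, with a median r of 0.531 beside 0.527 for Cd34, and Pecam1 was at 0.81.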

How the data were processed

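RNA of 10 samples of E10.5 hearts was measured on Affymetrix Mouse Gene 1.0 ST arrays. The authors deposited log2 signals for 35556 rows and used 3 pooled hearts per sample; the submitters' processing notes name MAS5, and the normalization and genome build are not given in the sources used here. After 6612 control rows were left out, 28944 transcript clusters were tested, of which 21789 name 1 gene, 1621 several and 5534 none here. Symbols come from the platform annotation, and coordinates from GRCm38.p6.

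CAR KO was compared with WT with the lmFit and eBayes functions of limma 3.58.1 (R 4.3.3), without filter or trend. Clusters with a Benjamini-Hochberg adjusted p under 0.05 were called. The procedure was tested on simulated data with independent noise for each gene, which does not reproduce genes that move together across samples. The members, lists and tests were chosen with earlier results of these data known. Named were all members, Cxadr, every ligand and partner of the 3 receptor lists, chosen endothelial and endocardial genes (Cdh5, Ptprb, Cldn5, Esam, Icam2, Nfatc1 and Npr3), the 2 genes with the smallest p in those lists, Alb and Afp, and the 10 genes most like the members; the rule also chose the 2 genes with the smallest p in each list of another cell type, but those lists are given as counts and medians, without the values of these genes. Lyve1, Stab2 and Stab1 were named after their values were seen. Alternatives were the methods' t-test, quantile normalization, array weights, median centring, a robust prior with intensity trend, a filter on dim clusters, only clusters that name 1 gene, the mean of a gene's clusters, a block for the sample number, and leaving out samples. Correlations between samples ranged from 0.987 to 0.998. Figures were drawn with matplotlib 3.10.9.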

Additional observations from a re-analysis of the deposited data

Results flagged for a closer look

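Of 26 groups of 5 samples examined (the 10 members, Cxadr and the 2 receptor pairs in each genotype), 1 held a sample that stood apart. Chance alone marks about 1 group in 20, which comes to 1.3 here. WT sample 5 was the lowest WT sample for Tek, with a gap of 0.788 of the range of the WT samples. Tek was at 11.28 in that sample, against 11.61 to 11.70 in the other WT samples. CAR KO sample 5, the lowest of its genotype for 9 of 10 members, did not reach the critical value of 0.71 for any of them.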

How the results depend on the processing

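Of the 20 alternatives run, 19 were planned and 1 was chosen after the data were seen, which dropped CAR KO sample 5 and WT samples 2 and 5, richest in Alb. No member was called under any of them (lowest adjusted p = 0.775, with array weights), and Cxadr was called under all (−1.97 to −1.84 with samples left out in turn). Of 200 values for single members, 193 kept their sign. The 7 that changed were all of Flt1, at −0.0024 as deposited: 0.0062 with quantile normalization, 0.022 with array weights, 0.029 without those 3 samples, and 0.025 without CAR KO sample 3, 0.064 without CAR KO sample 5, 0.0077 without WT sample 2 and 0.031 without WT sample 3. Over all 10 runs that left out 1 sample, Flt1 was at −0.049 to 0.064. Array weights called 2 transcript clusters in place of 1. The median of the members was −0.18 to −0.03 with samples left out and −0.05 with array weights. Members within 1.5-fold numbered 9 to 10 with samples left out (9 without any sample but CAR KO sample 5), and 9 with the methods' t-test, a filter on dim clusters or quantile normalization. Flt1 relative to Kdr was −0.15 to −0.0097 and Tie1 relative to Tek −0.14 to −0.05 over the samples left out. In a fit with a replicate block for the number, 1 cluster and 0 members were called, and 2 members lay under 0.05 before adjustment in limma (Tie1 at 0.0296 and Mcam at 0.0204), as did 1304 of 28944 clusters, against 696 without the block. With samples left out 1 member did so without CAR KO sample 2 (Mcam, 0.0387; 628 clusters), 1 without CAR KO sample 4 (Tie1, 0.0492; 607 clusters) and 1 without WT sample 5 (Tek, 0.043; 602 clusters). The other alternatives gave 0 members. The numbers are not known to pair samples. Pairs of 1 number had correlations of deviations between 0.0727 and 0.561, and for 4 of 5 CAR KO samples the best match was the WT sample of that number, which is a property of the data only. The mean of a gene's clusters changed nothing for the members, which have 1 each. The causes of the changes were not tested. The 5 samples per genotype limit the precision to the intervals given.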

Other observations

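Some endothelial surface genes went against the members in CAR KO sample 5. Lyve1, a hyaluronan receptor, and Stab2, a scavenger receptor, were chosen after their values were seen. Most genes of their list of 24 did not go this way: CAR KO sample 5 was the lowest CAR KO sample for 14. Lyve1 was at 8.98, 8.76, 8.92, 8.42 and 9.84 in CAR KO samples 1 to 5, against 8.74, 9.13, 8.88, 8.77 and 9.17 in WT samples 1 to 5. Its highest value in each genotype was in sample 5. Stab2 was at 7.34, 7.18, 6.87, 7.14 and 7.78 in CAR KO samples, against 7.05, 7.25, 7.01, 6.97 and 7.17 in WT samples. It was highest in CAR KO sample 5, and among WT samples in sample 2. Stab1, of the same list, went the other way. CAR KO sample 5 was its lowest of all 10 samples, at −0.20 relative to the mean of the other CAR KO samples. Nrp2 was highest in sample 5 of both genotypes, at 9.64 in CAR KO and 9.46 in WT hearts, against 9.05 to 9.28 in the other CAR KO samples and 8.98 to 9.15 in the other WT samples. Neither Lyve1, Stab2 nor Nrp2 was called between genotypes (adjusted p = 1.0 from limma for each).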
